A study of Danio rerio with 6 samples.

Results

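Among 24789 genes measured in zebrafish (Danio rerio) trunks, 4 genes whose level differed at least 4-fold between control and qkia/c loss of function embryos are described here. They are the parathyroid hormone gene pth1b (ENSDARG00000091961), the alpha/beta hydrolase domain gene named ABHD8 (ENSDARG00000076620), rell2 (ENSDARG00000071876) and the Rieske domain gene named RFESD (ENSDARG00000058725). They were chosen on the ratio of their group means, so that difference is given as a description, with no test. The intervals of read ratios given below make no allowance for that choice. Of 15272 genes with a mean of at least 50 in 1 group, 32 (0.210%) were at least 4-fold higher in loss of function and 13 (0.0851%) at least 4-fold lower. In that order pth1b was in place 1 among the genes that were lower. ABHD8 held place 2, rell2 place 10 and RFESD place 25 among those that were higher. Just inside the 4-fold limit lay gata1a at 4.02-fold higher and FRRS1 at 4.03-fold higher. Just outside it lay si:ch211-244b2.3 at 3.96-fold lower and epb41b at 3.95-fold higher.

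Poly(A) RNA was sequenced from trunks dissected free of head and yolk at 24 to 26 h after fertilization, with 3 libraries per group. Control embryos were qkia+/+ or qkia+/- siblings, not told apart in the labels, that had received a control morpholino. Loss of function embryos were qkia-/- and had received a qkic morpholino, an antisense oligonucleotide that blocks translation or splicing of its target. The dose was 0.6 pmol in both groups. Both groups came from crosses of qkia+/- fish and were recognised by their morphology, and the labels do not say how many embryos made up a library. Quaking proteins are RNA-binding regulators of how transcripts are spliced, kept and translated, and the series asks which genes are targets of qkia and qkic. Genotype and morpholino changed together in every loss of function library, so their effects cannot be told apart. Fewer cells of a type and less RNA per cell cannot be told apart in whole trunks either.

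The gene tables corresponded to 38804265 to 44799398 reads per library when each value was divided by the value of 1 read. The labels state a mean of 27459238 reads passing the quality filter per sample, which is fewer. The difference was not settled, and intervals based on reads depend on it. The mutated gene qkia had 61.7, 81.9 and 58.9 in control replicates 1, 2 and 3 and 5.98, 6.93 and 3.34 in loss of function replicates 1, 2 and 3 (normalized read counts). It fell 12.5-fold (limma log2 difference -3.45, SE 0.30, adjusted p = 1.93e-07), with no overlap between the groups. The 5 trunk muscle markers summed to 281758 to 361601 in controls and 308023 to 315870 in loss of function, while the 7 head markers summed to 236 to 263 and 200.4 to 221. The largest part of the muscle sum was ckma, with means of 169241 and 191792, which limma did not call. Of the 5 muscle markers limma called 3 lower and 0 higher, and 2 were not called. In limma, 4143 of 18917 genes tested were higher (21.9%) and 3792 lower (20.0%), together 41.9%. Scaling each library to the total of its gene values gave 2147 higher and 6225 lower, with the median of all genes at -0.14 in place of 0.00 on the log2 scale.

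Parathyroid hormone is a secreted peptide that acts through receptors coupled to G proteins, and in mammals it raises blood calcium through bone and kidney. Zebrafish have paired copies of its gene, and the embryo transcribes them in the lateral line and the nervous system, before bone forms. The other 3 genes are less well known. ABHD8 belongs to a large family of proteins with an alpha/beta hydrolase fold, for many of which no substrate has been established. RELL2 is a membrane protein related to RELT, a member of the tumour necrosis factor receptor superfamily, and mammalian RELT family proteins bind the stress kinase OXSR1. RFESD carries a Rieske domain, which holds an iron-sulfur cluster through cysteines and histidines, as in the electron-carrying subunit of respiratory complex III.

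The peptide hormone gene pth1b was nearly lost from loss of function trunks. Its normalized read count, a read count divided by a size factor of the library, was 103, 87.8 and 75.1 in control replicates 1, 2 and 3. It was 1.99, 3.96 and 3.34 in loss of function replicates 1, 2 and 3. All 3 controls lay far above all 3 loss of function libraries, and the groups did not overlap, as for 52.1% of all genes tested. The means were 88.7 ± 14.0 and 3.10 ± 1.01 (SD, n = 3), 28.6-fold lower in loss of function, with a log2 difference of -4.47 after a pseudocount of 1. Only 9 pth1b reads were counted in the 3 loss of function libraries together, in numbers of 2, 4 and 3, against 117, 89 and 74 in controls. The ratio of pooled reads had a 95% exact interval of 15.0 to 63.8, which covers counting error only. The lowest control was 19.0 times the highest loss of function library. Leaving out any single library gave 24.3-fold to 33.2-fold lower.

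Of the hydrolase gene ABHD8 there were 34.4, 22.7 and 22.3 in control replicates 1, 2 and 3 and 216, 231 and 239 in loss of function replicates 1, 2 and 3 (normalized read counts). Control replicate 1 was the highest control, and all loss of function libraries stood close together well above it. The means were 26.5 ± 6.85 and 229 ± 11.2 (SD, n = 3), 8.64-fold higher in loss of function, with a log2 difference of 3.09. The pooled reads, 84 against 664, gave a 95% exact interval of 6.77 to 10.8 for the ratio, which covers counting error only.

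The RELT-like gene rell2 had 37.0, 33.5 and 43.6 in control replicates 1, 2 and 3 and 207, 218 and 173 in loss of function replicates 1, 2 and 3 (normalized read counts). The groups did not overlap, and replicate 3 was the highest control and the lowest loss of function library. The means were 38.1 ± 5.13 and 199 ± 23.6 (SD, n = 3), 5.24-fold higher in loss of function, with a log2 difference of 2.36. The pooled reads were 119 and 583, and the 95% exact interval of their ratio, for counting error only, was 4.32 to 6.48.

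The Rieske domain gene RFESD had 15.9, 7.89 and 36.5 in control replicates 1, 2 and 3 and 82.8, 83.2 and 99.2 in loss of function replicates 1, 2 and 3 (normalized read counts). Controls were spread over a 4.63-fold range, with replicate 2 the lowest and replicate 3 the highest, while loss of function libraries lay close together, and the groups did not overlap. The means were 20.1 ± 14.8 and 88.4 ± 9.39 (SD, n = 3), 4.40-fold higher in loss of function, with a log2 difference of 2.32. This value depended on control replicate 3: without it the difference was 7.44-fold, and it was 3.37-fold without control replicate 2 and 3.98-fold without control replicate 1, both under the limit of the rule. The lowest loss of function library was still 2.27 times the highest control. The SD of the log2 values of RFESD in controls, 1.04, was above that of 99.2% of the 1889 tested genes with a control mean within 1.5-fold of its own. The same share was 65.2% for pth1b, 63.2% for ABHD8 and 33.1% for rell2.

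**Figure D1:**
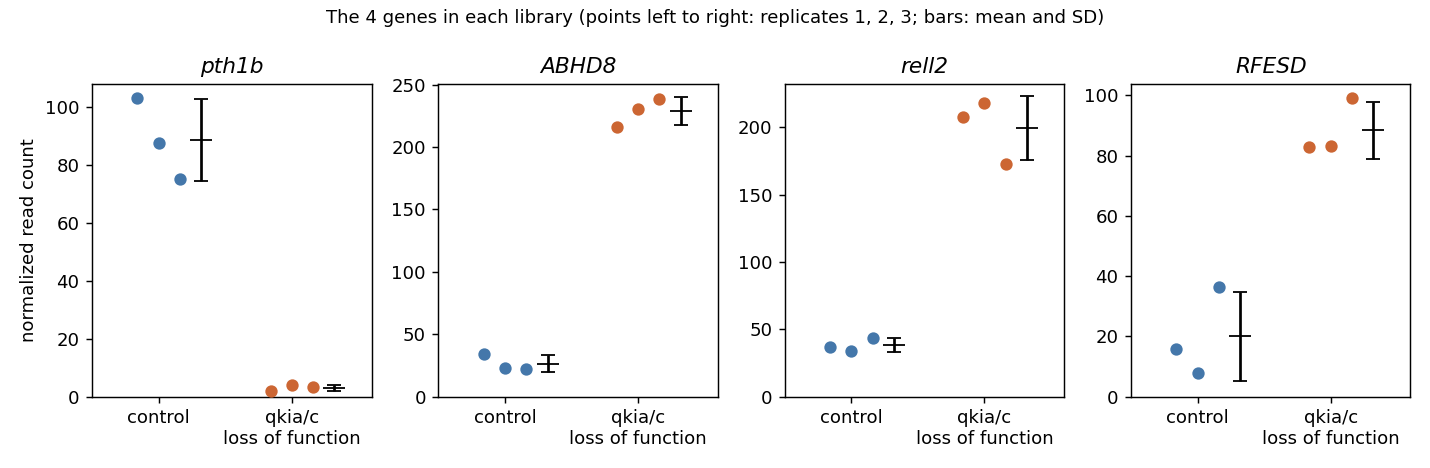
Normalized read counts (y axis, from 0) of pth1b, ABHD8, rell2 and RFESD in each of the 6 libraries (points, replicates 1 to 3 from left to right in each group), with the mean and SD of each group beside them. The groups do not overlap for any of the 4, as for 52.1% of all genes tested. RFESD has the widest controls relative to its mean, from 7.89 to 36.5.

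The profiles of the 3 genes that were higher were set against those of all named genes. Likeness was the root mean square difference between 2 genes over the 6 libraries, on log2 values with the mean of each gene subtracted, among 15251 tested genes with a symbol. Since the group difference dominates this measure, it picks genes with a similar fold, and it carries no test.

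For RFESD the 3 most alike genes were the embryonic globin genes hbbe3 (difference 0.19), hbae1.1 (0.19) and hbae3 (0.20). Globin hbae3 had 8382, 4341 and 12905 in control replicates 1, 2 and 3 (normalized read counts), the same order as RFESD, and 37258 to 38444 in loss of function. With RFESD controls so far apart, a gene this near to it had to share their order, so the order is no separate observation. For rell2 they were the zinc finger gene znfl2a (0.12), GNMT (0.14), which encodes glycine N-methyltransferase, and STEAP3 (0.17), whose mammalian product reduces iron in the endosomes of red cell precursors. For ABHD8 they were the draculin-like zinc finger gene drll.3 (0.35), the fatty acid binding protein gene fabp10a (0.36), a liver marker, and the globin gene hbae4 (0.38). ABHD8 and rell2 were also close to each other (0.46), rell2 being in place 6 by likeness to ABHD8. RFESD was farther from both, at 0.76 from ABHD8 and 0.53 from rell2.

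The genes most like pth1b were tcap (0.65), which encodes a titin-binding protein of the Z-disc, the mutated gene qkia (0.65) and the small heat shock gene hspb9 (0.94). No named gene matched pth1b closely: its loss of function libraries lay below those of all 3 relative to controls. The ratio of means was 9.89-fold lower for tcap, 12.5-fold for qkia and 6.41-fold for hspb9.

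**Figure D2:**
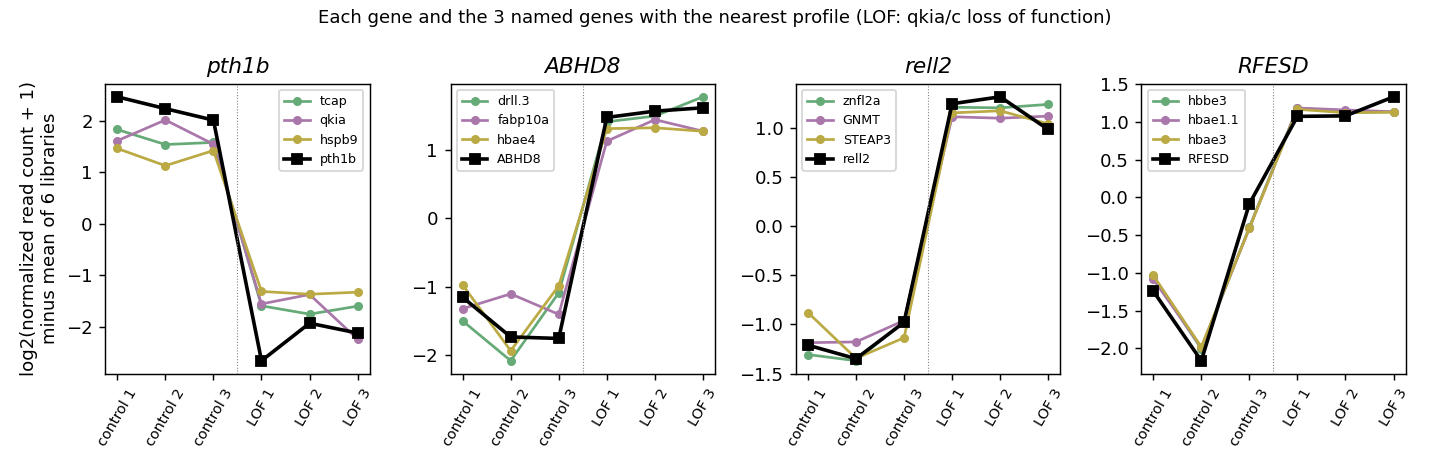
Profiles over the 6 libraries (x axis; LOF, loss of function) of each of the 4 genes (black squares) and its 3 most alike named genes (coloured circles), as log2(normalized read count + 1) minus the mean of the gene over the libraries (y axis). RFESD follows hbbe3, hbae1.1 and hbae3 in dipping at control replicate 2, whereas ABHD8 is highest among controls in replicate 1. The shared dip follows from the choice of the 3 globin genes as nearest in profile.

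Markers of primitive red blood cells moved with the group in the same libraries. Of 12 genes on the list, 11 rose and 1, the second gene named SLC4A1 (ENSDARG00000024560), fell, against 21.9% and 20.0% of all genes tested. The list was planned with slc4a1a alone, and both genes named SLC4A1 entered it through the human name. The 1 that fell had means of 54.5 in controls and 31.2 in loss of function, and the other had 938 and 5099. Which of them is slc4a1a was not settled, so the gene that fell may not be a planned marker. The call of the gene that fell was lost without loss of function replicate 3. The median log2 difference was 2.22, and no marker was at 0 in all libraries. The summed normalized read count of the 12 was 18643, 9942 and 28429 in control replicates 1, 2 and 3 and 82948 to 85463 in loss of function, 4.42-fold higher. Most of it came from 2 globin genes. Their means in controls and loss of function were 8543 and 37710 for hbae3 and 6703 and 29833 for hbbe3. Controls differed 2.86-fold among themselves in this sum. Markers of the hatching gland, which secretes the enzymes that open the egg envelope, also moved with the group. All 3 tested of 4 rose (median log2 difference 1.53, against 21.9% of all genes tested), and the sum of the 4 was 2441 to 2622 in controls and 3408 to 3612 in loss of function. Most of that sum was CD63, with means of 2293 and 2806, only 1.22-fold higher in loss of function. The hatching enzyme gene he1.3 rose 2.85-fold. The gene he1.1 had 6.17, 1.97 and 13.2 in control replicates 1, 2 and 3, the order of RFESD and of the erythroid sum, and 19.9 to 22.3 in loss of function. Its control values rest on 7, 2 and 13 reads. In the same controls the better counted he1.3 had 279, 182 and 227 and CD63 had 2154, 2344 and 2382, each in another order.

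Set against the erythroid sum, the 3 genes that were higher differed. RFESD amounted to 8.51, 7.94 and 12.9 per 10000 of the erythroid sum in control replicates 1, 2 and 3 and to 9.68 to 11.9 in loss of function. The ratio of means was 1.08, and all 6 libraries lay within 1.62-fold. In controls RFESD rests on only 18, 8 and 36 reads. The sum is mostly hbae3 and hbbe3, which were among the genes most alike RFESD. This ratio is therefore not a separate observation from that likeness. For rell2 the values were 23.0 ± 9.59 and 23.8 ± 2.80 (SD, n = 3), a ratio of 1.03 between means. Here the controls spread 2.20-fold, from 15.4 in replicate 3 to 33.7 in replicate 2, and enclosed the loss of function libraries. ABHD8 had 18.4, 22.8 and 7.85 in control replicates 1, 2 and 3, all below the 25.3 to 28.6 of loss of function, and the ratio of means was 1.66. In controls rell2 had the same order as the erythroid sum over a much smaller range, and ABHD8 had another order. The part of red blood cells or of hatching gland in the levels of the 3 genes was not tested.

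**Figure D3:**
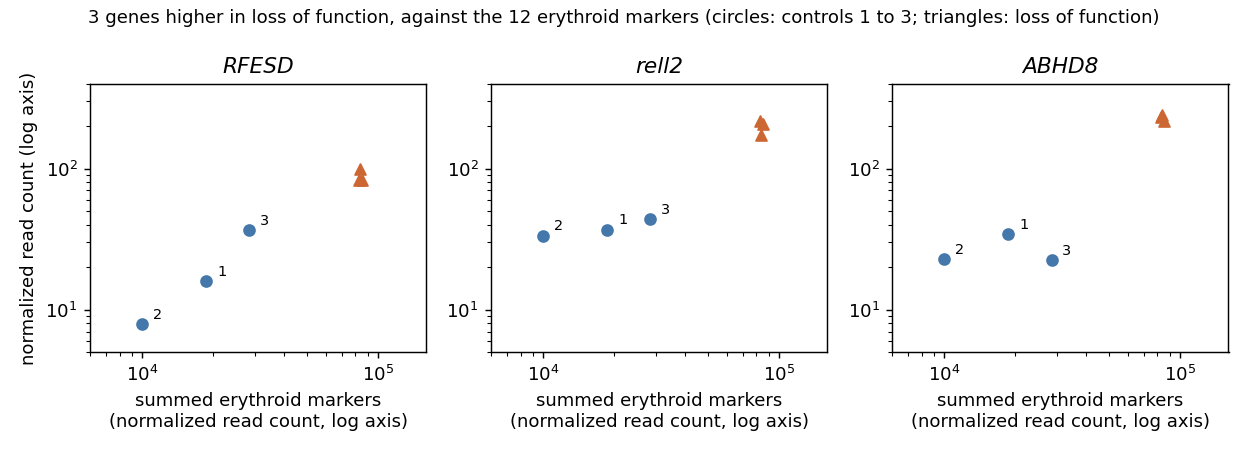
Normalized read count of RFESD, rell2 and ABHD8 (y axis, log) against the summed normalized read count of 12 erythroid markers (x axis, log) in the 6 libraries; circles are controls with their replicate number and triangles are loss of function. RFESD goes up with the erythroid sum among the 3 controls, from 7.89 to 36.5, while rell2 stays between 33.5 and 43.6 and ABHD8 between 22.3 and 34.4.

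For pth1b, markers of 2 places where it is transcribed were examined. Of 9 lateral line markers 5 fell and 2 rose (median log2 difference -0.23; 5 and 0 after scaling to the total of gene values), where 20.0% of all genes tested fell and 21.9% rose, and their sum was 13195 ± 399 in controls and 11367 ± 64.5 in loss of function. All 4 spinal cord markers fell (median -0.36; 20.0% of all genes tested fell), with a sum of 8923 ± 574 in controls and 6915 ± 74.7 in loss of function. Per 10000 of the lateral line sum, pth1b was 24.7-fold lower in loss of function, and per 10000 of the spinal cord sum it was 22.3-fold lower. Both sums changed far less than pth1b, so these ratios had to stay near its own 28.6-fold. These 2 lists hold genes that other tissues also transcribe. The part of cell numbers in the level of pth1b was not tested.

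Of the other genes of the parathyroid hormone family, pth1a and the receptor gene pth3r fell. The paralogue pth1a (ENSDARG00000093738) had 135, 136 and 124 in control replicates 1, 2 and 3 and 51.9, 66.3 and 61.3 in loss of function replicates 1, 2 and 3 (normalized read counts). It fell 2.20-fold, with a log2 difference of -1.13 (SE 0.15, limma adjusted p = 1.51e-05), and its groups did not overlap. The normalized read count of pth1b was 67.2% ± 8.25 of that of pth1a in controls and 5.09% ± 1.11 in mutant trunks with the qkic morpholino (SD, n = 3; not corrected for transcript length). The labels do not say how reads shared between the copies were counted. The parathyroid hormone-related peptide gene pthlha went from 23.3 ± 3.83 to 14.2 ± 2.43 (log2 difference -0.68, 95% interval -1.28 to -0.08; limma adjusted p = 0.0629), short of the threshold. It passed after scaling to the total of gene values (limma adjusted p = 0.0287) and without the intensity trend (0.0242). The ligand gene pth2 had 5.14 ± 0.861 and 5.26 ± 2.98, below the filter.

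Among receptor genes, pth3r fell from 375 ± 45.8 to 266 ± 15.0 (log2 difference -0.49, SE 0.10, limma adjusted p = 7.23e-04). The receptor gene PTH1R had 3.11 ± 2.15 and 1.86 ± 3.22, and the 2 genes named PTH2R had control means of 8.49 and 0.632. None of these reached the filter, so pth3r was the receptor gene of the list with enough reads to test. Of 31 tested genes of calcium and phosphate regulation 6 rose and 6 fell (median log2 difference -0.00; 6 and 10 after scaling to the total of gene values), against 21.9% and 20.0% of all genes tested. The phosphate transporter gene slc34a2b (-0.67) and the calcium pump gene atp2b3a (-0.58) fell, while s100a10b (0.37) and enpp1 (0.41), whose product makes pyrophosphate, rose.

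For ABHD8, 23 further genes with an alpha/beta hydrolase fold were tested. Of these 11 rose and 2 fell, the latter ABHD16A (-0.18) and abhd17c (-0.17), against 21.9% and 20.0% of all genes tested, with a median log2 difference of 0.22 against 0.00. After scaling to the total of gene values 5 rose and 3 fell, DESeq2 called 6 and 2, and limma called 7 and 0 without loss of function replicate 2 and 7 and 1 without replicate 3. The examples with the smallest p were NDRG2 (0.80, limma adjusted p = 2.66e-05), NDRG3 (0.29), ABHD14A (0.34) and NDRG1 (ENSDARG00000032849, 0.28). Among the 23, ABHD2 (ENSDARG00000045804) had the largest ratio of means of those that rose, 2.13-fold, at low levels of 8.65 ± 0.633 in controls and 18.4 ± 5.24 in loss of function (0.97 on the log2(value + 1) scale, limma adjusted p = 0.0262).

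For rell2, the related gene rell1 (ENSDARG00000018312) had 736 ± 30.0 in controls and 823 ± 25.0 in loss of function (log2 difference 0.16, 95% interval 0.03 to 0.29; limma adjusted p = 0.0507). It passed without control replicate 3 (limma adjusted p = 0.0259) and with a filter of at least 50 in 3 libraries (limma adjusted p = 0.0444). The kinase gene oxsr1b rose 1.51-fold, from 967 ± 37.0 to 1458 ± 43.3 (0.59, SE 0.06, limma adjusted p = 6.24e-07), while its copy oxsr1a had a log2 difference of 0.06 (limma adjusted p = 0.343). Both genes named MAPK14, which encode p38 kinases, rose (0.21 and 0.18), but neither passed after scaling to the total of gene values, and wnk1a, whose mammalian product activates OXSR1, fell (-0.46). Of 15 tested genes of this group in all, 3 rose and 2 fell (median 0.06), near the 21.9% and 20.0% of all genes tested. After scaling to the total the counts were 1 and 3 (median -0.08). Among 9 tested tumour necrosis factor receptor genes, 2 rose and 2 fell, again near the shares over all genes tested (21.9% and 20.0%), and 1 and 4 after that scaling. The death receptor gene of blood cells, hdr, rose from 275 ± 66.9 to 689 ± 29.3 (1.35, SE 0.13, limma adjusted p = 4.21e-07). The other that rose was tnfrsf9a (0.21), whose call was lost after scaling to the total of gene values, and those that fell were tnfrsf1a (-0.31) and tnfrsf14 (-0.46).

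For RFESD, the second gene of that name (ENSDARG00000042159) had 29.1, 15.8 and 20.3 in control replicates 1, 2 and 3 and 19.9, 24.7 and 12.3 in loss of function replicates 1, 2 and 3 (normalized read counts). Its groups overlapped, and the log2 difference of -0.20 (95% interval -0.86 to 0.47) missed the threshold (limma adjusted p = 0.651). Of the other Rieske proteins, UQCRFS1, the complex III subunit, rose from 2056 ± 70.3 to 2360 ± 90.8 (0.20, SE 0.05, limma adjusted p = 0.00579), a call that was lost after scaling to the total of gene values (0.06). The hydroxylase gene cmah had a log2 difference of 0.10 and did not pass (limma adjusted p = 0.312), and AIFM3 was below the filter with means of 6.74 and 3.14.

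Genes that build iron-sulfur clusters or carry electrons on ferredoxins gave 17 of 35 higher and 2 lower, the latter CIAPIN1 (-0.25) and IREB2 (-0.21). All genes tested had 21.9% higher and 20.0% lower. The median log2 difference of the list was 0.17, and after scaling to the total of gene values 8 were higher and 4 lower. Without loss of function replicate 1 the counts were 10 and 1, and without the intensity trend 11 and 2. CIAO1 of the cytosolic assembly machinery rose 1.48-fold (0.57), the scaffold gene ISCU (ENSDARG00000035596) 1.37-fold (0.45), the transfer protein gene GLRX5 1.36-fold (0.44) and the acyl carrier gene ndufab1b 1.26-fold (0.34). SLC25A37, which brings iron into the mitochondria of red cell precursors, had the largest log2(value + 1) difference among the tested genes of the list. It had 22.9, 21.7 and 29.4 in control replicates 1, 2 and 3 and 77.8, 65.3 and 58.0 in loss of function replicates 1, 2 and 3 (1.41, limma adjusted p = 5.31e-05).

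**Figure D4:**
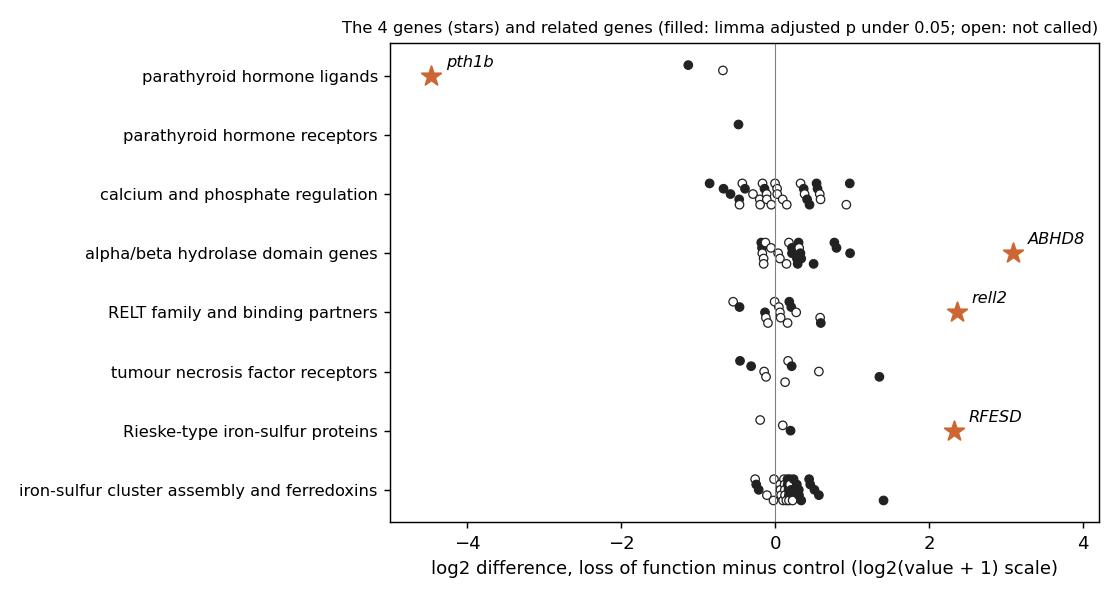
Log2 difference, loss of function minus control, on the log2(value + 1) scale (x axis) for the 4 genes (stars, not tested) and for the tested genes of 8 lists related to them (circles, 1 list per row of the y axis; filled where the limma adjusted p was under 0.05). The stars lie at -4.47, 3.09, 2.36 and 2.32, and their distance from the circles follows from the choice of genes with at least a 4-fold difference.

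The position of the genes relative to the mutated locus was read from the order of RefSeq genes in assembly GRCz12tu, which is not the build of the files, so no coordinates are given. Neither pth1b nor rell2 lies on the chromosome of qkia there, and neither do the genes that RefSeq names abhd8a, abhd8b and rfesd. Which RefSeq gene corresponds to the measured ABHD8 and RFESD was not settled. Of the 10 protein-coding genes nearest to rell2 in order, 5 on each side, 7 were matched by name to a measured gene and 6 were tested. Of these 6, 2 rose and 1 fell, with log2 differences from -0.25 to 0.39, against 21.9% and 20.0% of all genes tested. The gene next to rell2 on one side, st3gal5, which encodes a sialyltransferase, fell slightly (-0.25, limma adjusted p = 0.00134), opposite to rell2. Around pth1b only 2 of the 10 nearest genes were matched by name, and the genes next to it on both sides were not. The 1 tested gene, ctr9, at position 4 on one side, rose (0.59, limma adjusted p = 1.06e-07) while pth1b was lower. The libraries did not keep the strand, so reads of overlapping genes are not told apart.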

How the data were processed

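The deposited tables give a normalized signal for each gene. Its values show that the authors scaled reads by 1 factor per library, since 100% of them are multiples of the smallest step to within 0.001 of a read. The submitters' processing notes list HTSeq 0.5.3, STAR 2.4.0j, Bowtie 0.12.9, DESeq 1.8.3 and SAMtools, and the build Zv9, with no roles. Exon tables were not used here. Groups and replicate numbers come from the sample titles. The series' design calls the replicates biological, without saying whether they are separate clutches, and p-values describe only how these libraries vary.

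Genes reaching 10 in 3 or more of the 6 libraries were tested with limma 3.58.1 (R 4.3.3, eBayes with trend) on log2(value + 1). The added 1 shrinks changes of low genes. A log2 difference is between means of logs. Where controls are spread, as for RFESD, it can exceed the log2 of the ratio of means. P-values are 2-sided, with Benjamini-Hochberg adjustment over all 18917 genes and a threshold of 0.05. On recovered reads, edgeR 4.0.16 and DESeq2 1.42.0 were alternatives; for 2 of the 6 libraries the step lies so near 1 that a separate check of whole reads did not accept it. The limma script was tested on simulated data. The members, the lists and the rule for named genes were chosen with earlier results of these data known. That rule took family members, up to 4 called genes per list by adjusted p, the 3 most alike genes per member and nearest neighbours. ABHD2, ABHD16A, abhd17c, he1.1, he1.3, CD63, CIAPIN1, IREB2, SLC25A37, oxsr1a, ctr9 and SLC4A1 were named after their values were seen. Of 227 planned names, 185 were matched to a gene ID, in part through the human name, so that copies of a gene can share a name.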

Additional observations from a re-analysis of the deposited data

How the results depend on the processing

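The direction of the 4 genes held under every alternative run. Genes chosen for a difference of at least 4-fold in these same values could hardly reverse, so this is no separate support. The log2 difference of pth1b, which rests on 9 reads in loss of function, was -3.53 with a pseudocount of 5, -4.80 with edgeR and -4.85 with DESeq2. Leaving out 1 library at a time gave -4.62 to -4.26 for pth1b, 2.99 to 3.29 for ABHD8, 2.27 to 2.46 for rell2 and 1.82 to 2.86 for RFESD. Scaling to the total of gene values gave 2147 genes higher and 6225 lower over all genes, and 21 higher and 27 lower among the genes of the 8 related lists, against 40 and 16. This follows from that scaling, which moved the median of all genes by -0.14. Leaving out 1 library gave 28 to 39 related genes higher and 10 to 19 lower, 10 without loss of function replicate 2, and 3142 to 4487 higher and 2968 to 3908 lower over all genes. No pairing by replicate number was seen, as same-numbered deviations from the group means correlated at -0.07, 0.01 and -0.02. Such correlations cannot exclude that libraries of the same number shared a clutch or batch. With the replicate number as a block, 39 related genes were higher and 14 lower, and 4055 and 3759 over all genes. Of the values of single named genes under the alternatives, 680 kept their direction and side of the threshold, 15 lost and 4 gained the call, and 3, none past the threshold, reversed. Many of these genes were named for a small adjusted p, likeness to a member or a ratio near 4-fold in these same values. That they mostly kept their calls is therefore no separate support. The second gene named RFESD had 0.027 without control replicate 1 and 0.073 without loss of function replicate 3 (range -0.405 to 0.073 over the left-out libraries), and cmah had -0.041 after scaling to the total of gene values.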

Other observations

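Of the 10 protein-coding genes nearest to qkia in RefSeq order, 9 were matched by name to a measured gene and 6 were tested. Of these 6, 1 rose and 3 fell in loss of function, with log2 differences from -0.91 to 0.30, where 21.9% of all genes tested rose and 20.0% fell. These tested genes differed by less than qkia itself (-3.45).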
